A study of Mus musculus with 24 samples.

Results

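The comparison is the knockout of Prkar1a in the adrenal glands of female (XX) mice. It takes 8 of the 24 arrays of the study, 4 from KO females and 4 from WT females, chosen by their labels alone. KO females were Prkar1a fl/fl with 1 Cre allele (cre/+) and mTmG/mTmG, and WT females were Prkar1a fl/+ with the same Cre and the same mTmG/mTmG reporter. The WT females therefore also carried Cre and 1 floxed allele, so the comparison is of 2 floxed alleles against 1 under the same Cre. Cre is expressed from the Cyp11b2 locus, which encodes aldosterone synthase, and acts in cells that have used that gene. All mice were 7 months old, on a mixed sv129-C57Bl/6 background, not gonadectomised in these groups, and each array held RNA of whole adrenal glands, cortex and medulla together. The other 16 arrays, from males, are used for the shared estimate of the spread and for the difference between knockout effects. KO intact and KO gonadectomised (GDX, during the last 2 months) males had the genotype of KO females. WT intact males were Prkar1a fl/fl without Cre, and WT GDX males were wild type for Prkar1a without Cre (array 1), wild type with Cre (arrays 2 and 3) or fl/+ with Cre (array 4). All of these males were mTmG/mTmG but for WT GDX array 2, which was mTmG/+. Titles call the arrays of a group biological replicates.

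Prkar1a encodes the type I alpha regulatory subunit of protein kinase A (PKA), which holds the catalytic subunits inactive until cyclic AMP binds. In the adrenal cortex this pathway carries the signal of the pituitary hormone ACTH, which drives glucocorticoid synthesis in the zona fasciculata. The outer zona glomerulosa makes aldosterone under angiotensin II and potassium, depends on WNT signals partly from the capsule, and supplies cells that move inward and become fasciculata.

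Values are log2 RMA signals, so that a difference of 1 is a 2-fold difference in signal. Each gene is read by 1 probe set, and 14411 of 21957 genes passed a filter of log2 over 5 in at least 4 of the 24 arrays. Changes are KO minus WT ± the standard error from limma, with 4 arrays in each group and p adjusted over all genes tested. In KO against WT females 4694 of 14411 genes were called, 32.6% of those tested. Of these, 2001 (13.9%) were higher and 2693 (18.7%) were lower in KO females, and 417 differed at least 2-fold, 225 higher and 192 lower. The shares of 13.9% and 18.7% are those against which all list counts below are to be read. For 4723 genes (32.8%) no KO array overlapped a WT array. The median change over all genes was -0.0193, and the median size of a called change was 0.40. Of the calls, 42.6% were higher in KO females, against 54.2% with each array centred on its median and 47.5% after another round of quantile normalization. The first principal component of the 8 arrays held 62.8% of the variance and placed KO females at 20.1 to 28.0 and WT females at -26.1 to -19.9. On the second, with 10.7%, KO array 3 (21.1) and WT array 4 (12.2) stood apart from the other arrays (-8.96 to -2.85). Without those arrays 4224 genes were called.

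Prkar1a, the targeted gene, had log2 values of 7.30, 7.00, 7.35 and 6.67 in KO females, against 8.43, 8.53, 8.54 and 8.52 in WT females. Every KO array lay below every WT array (-1.43 ± 0.23, adjusted p 5.83e-05). The labels do not say which exons this probe set reads or which exons are floxed. Cyp11b2, the gene that carries the Cre in both groups and makes aldosterone, stood at 8.35, 9.10, 7.47 and 8.72 in KO females, against 9.71, 10.97, 11.11 and 11.04 in WT females. The groups did not overlap (-2.30 ± 0.36, adjusted p 5.11e-05), and WT array 1 lay well below the other WT arrays. In a whole gland, fewer cells of a type and less RNA per cell cannot be told apart, here or for any gene below.

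Of the 15 largest rises in KO females, predicted symbols left out, Sv2c, a glycoprotein of synaptic vesicles, was at 10.73, 9.62, 8.90 and 9.57 in KO females, against 5.16, 5.07, 5.35 and 5.21 in WT females (4.51 ± 0.49, adjusted p 9.05e-07). Ptprz1, a receptor tyrosine phosphatase known from glia, was at 10.11, 9.51, 7.94 and 9.43 in KO females, against 5.22, 5.45, 5.69 and 4.47 in WT females (4.04 ± 0.37, adjusted p 1.76e-07). For both genes the lowest KO array was array 3, and no arrays of the groups overlapped. Nxph1, a secreted ligand of neurexins, was at 8.79, 9.09, 9.07 and 8.64 in KO females, against 5.37, 5.65, 5.66 and 5.60 in WT females, the most even of these rises (3.33 ± 0.31, adjusted p 1.76e-07). Emb, an adhesion protein that escorts lactate transporters to the membrane, reached 11.81, 11.68, 11.32 and 11.80 in KO females, against 7.69, 8.15, 7.53 and 7.66 in WT females (3.90 ± 0.33, adjusted p 8.89e-08). Its other probe set differed by 0.24. Fetub, a secreted protease inhibitor, was at 11.17, 10.55, 10.28 and 11.11 in KO females, against 6.12, 7.11, 6.31 and 7.73 in WT females (3.96 ± 0.41, adjusted p 5.5e-07). Itga2, a collagen-binding integrin subunit, was at 9.95, 9.98, 9.27 and 9.66 in KO females, against 6.81, 7.05, 6.58 and 6.53 in WT females (2.97 ± 0.25, adjusted p 8.89e-08).

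Several of the strong rises started from a level too dim to read or varied widely among KO females. Bpifc (4.42 ± 0.30), of the BPI fold family, and Olfr810 (4.07 ± 0.57), annotated as an olfactory receptor, lay below 5 in all WT females, at 3.80 to 4.15 and 3.63 to 3.89, so the size of their rise is uncertain. The same holds for Spink8, of the Kazal protease inhibitor family, at 8.78, 6.97, 6.66 and 9.44 in KO females, against 4.07 to 4.66 in WT females (3.55 ± 0.39). Its SD was 1.36 in KO females and 0.26 in WT females. Vsig4, a complement receptor of resident macrophages, was at 5.64 to 6.85 in KO females and at 3.12 to 3.84 in WT females (2.75 ± 0.29, adjusted p 5.6e-07). Chil3, a chitinase-like protein of macrophages (3.79 ± 0.48), St8sia5, a sialyltransferase of gangliosides (3.69 ± 0.37), and Tgm3, a transglutaminase (3.41 ± 0.29), rose as well. The other probe set of St8sia5 differed by 0.23. Gsta3, a glutathione S-transferase (2.98 ± 0.23), Rhcg, an ammonia channel (2.92 ± 0.25), and Megf10, an engulfment receptor (2.89 ± 0.37), were the other members of the 15 largest rises. Over the 14411 genes, 58.6% had a larger SD in KO females, with a median SD of 0.125 in KO and 0.107 in WT females.

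**Figure D1:**
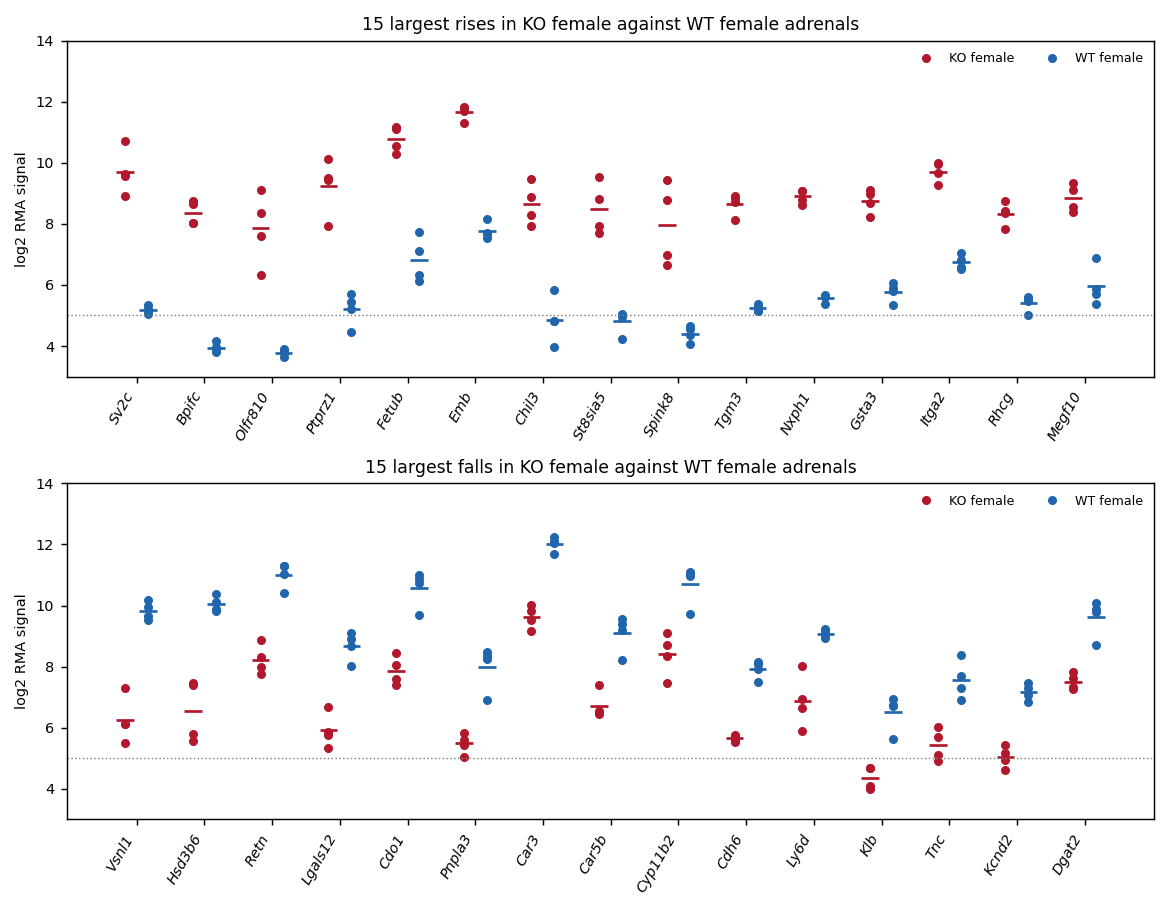
Log2 RMA signal of each array for the 15 genes with the largest rises (top) and the 15 with the largest falls (bottom), KO females in red left of WT females in blue, with group means as bars; the dotted line marks the filter level of 5. The genes were chosen without overlap of KO and WT arrays, which leaves out Cidea (-3.11), and Bpifc, Olfr810 and Spink8 lie below 5 in all WT females.

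The 15 largest falls in KO females included 3 genes of the zona glomerulosa list, Vsnl1, Hsd3b6 and Cyp11b2. They also included Retn, Lgals12, Cdo1 and Car3 of the adipocyte marker list and Pnpla3 and Dgat2 of the fatty acid list, with values given further below. Vsnl1, a neuronal calcium sensor of glomerulosa cells, was at 5.50, 7.28, 6.11 and 6.11 in KO females, against 9.53, 10.19, 9.64 and 9.94 in WT females (-3.57 ± 0.40, adjusted p 1.08e-06). Hsd3b6, the glomerulosa form of 3 beta-hydroxysteroid dehydrogenase, was at 7.41, 7.47, 5.57 and 5.78 in KO females, against 10.11, 10.37, 9.81 and 9.87 in WT females (-3.48 ± 0.60, adjusted p 0.000156). KO arrays 1 and 2 were far above KO arrays 3 and 4 for Hsd3b6, and all lay below the WT females. Cdh6, a cadherin, was even across arrays at 5.59, 5.53, 5.78 and 5.73 in KO females, against 7.50, 8.07, 7.92 and 8.15 in WT females (-2.25 ± 0.21, adjusted p 2.09e-07). So was Kcnd2, a potassium channel subunit, at 4.95, 5.44, 5.17 and 4.62 in KO females, against 6.84, 7.29, 7.48 and 7.08 in WT females (-2.13 ± 0.19, adjusted p 1.59e-07). Tnc, the matrix protein tenascin C, fell by 2.14 ± 0.43, and Ly6d, a surface protein of the Ly6 family, fell by 2.20 ± 0.44 with KO arrays at 8.03, 6.95, 6.65 and 5.90. Tenm3, a teneurin adhesion protein, was at 5.09 to 5.53 in KO females and at 7.04 to 7.58 in WT females (-1.96 ± 0.18, adjusted p 1.95e-07).

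The PKA system itself changed in both directions. Of 17 tested subunits, inhibitors and anchoring proteins, 4 were higher and 7 lower in KO females, Prkar1a included, with a median change of -0.07 (-0.0193 over all genes). Among regulatory subunits, Prkar1b was at 6.97, 6.77, 6.77 and 6.52 in KO females, against 7.34, 7.26, 7.38 and 7.41 in WT females (-0.59 ± 0.13, adjusted p 0.00177). The type II subunits did not pass the test, with Prkar2a at 0.14 ± 0.07 (adjusted p 0.12) and Prkar2b at 0.35 ± 0.14 (adjusted p 0.0538). The catalytic subunit Prkaca was higher by 0.28 ± 0.07 (adjusted p 0.00265), at 9.95 to 10.16 in KO and 9.69 to 9.85 in WT females, while Prkacb stood at -0.11 ± 0.06 (adjusted p 0.152). Prkx, a related catalytic kinase, was at 8.33, 8.18, 8.10 and 8.20 in KO females, against 7.59, 7.66, 7.64 and 7.64 in WT females (0.57 ± 0.08, adjusted p 2.38e-05). Pkia, an inhibitor of the catalytic subunits, fell by 0.37 ± 0.12 (adjusted p 0.0251). Of the anchoring proteins, Akap6 (-0.73), Akap7 (-0.49), Akap12 (-0.37) and Akap11 (-0.21) were lower, and Akap2 (0.28) and Akap13 (0.19) were higher. Akap1 (-0.06), Akap5 (-0.07) and Akap10 (0.04) were not called. With the chromaffin list mean as covariate Prkar1b and Prkaca lost their calls, and Pkia, Akap2, Akap11 and Akap13 each lost theirs without several single arrays. Without KO array 4 or WT array 4, 2 of the list were higher.

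Upstream of PKA, 4 of 26 adenylyl cyclases, phosphodiesterases and related genes were higher (15.4%, against 13.9% of all genes). Of them 7 were lower (26.9%, against 18.7%), and the median was -0.12. Without KO array 2 or WT array 3, 2 were higher. Adcy6, an adenylyl cyclase, was at 6.75, 6.30, 6.38 and 6.11 in KO females, against 7.32, 7.25, 7.41 and 7.04 in WT females (-0.87 ± 0.12, adjusted p 8.9e-06). Pde2a, a phosphodiesterase that breaks down cyclic AMP and GMP, fell by 0.65 ± 0.10 (adjusted p 2.78e-05), at 9.61 to 10.17 in KO and 10.45 to 10.52 in WT females. Pde8a, a phosphodiesterase specific for cyclic AMP, rose by 0.77 ± 0.11 (adjusted p 1.24e-05), at 8.65 to 8.91 in KO and 7.80 to 8.22 in WT females. Pde3b, at -1.42 ± 0.43 (adjusted p 0.0143), is a phosphodiesterase of fat cells as well, and its change was 0.15 with the adipocyte marker mean as a covariate. Among 30 cyclic AMP targets and early response genes, 4 were higher (13.3%, against 13.9% of all genes) and 7 lower (23.3%, against 18.7%), shares close to those over all genes, with a median of 0.06. Higher calls numbered 2 without KO array 4 or WT array 3 and 7 in a fit of the female groups alone. Sik1, a kinase induced by cyclic AMP, was at 8.16, 7.67, 7.66 and 7.75 in KO females, against 6.35, 6.66, 6.63 and 6.84 in WT females (1.19 ± 0.27, adjusted p 0.00217). Rgs2, a brake on G protein signals, fell by 0.94 ± 0.27 (adjusted p 0.0115), and Ppargc1a, a coactivator of mitochondrial genes, fell by 1.17 ± 0.34 (adjusted p 0.0127) with all KO arrays below 5. Nr4a2 was at -1.05 ± 0.56 and was not called (adjusted p 0.162).

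Every tested enzyme of the mevalonate pathway (5 of 5) and 11 of 12 enzymes from squalene to cholesterol rose in KO females, with median changes of 1.38 and 1.44. Sqle, squalene epoxidase, was at 9.98, 10.07, 10.02 and 10.10 in KO females, against 7.23, 7.57, 7.64 and 7.75 in WT females (2.50 ± 0.25, adjusted p 3.17e-07). Hsd17b7, a sterol ketone reductase, was at 8.40, 8.48, 8.38 and 8.83 in KO females, against 5.69, 6.13, 6.06 and 6.50 in WT females (2.43 ± 0.31, adjusted p 6.27e-06). The spread among KO arrays of Sqle was far smaller than the gap to the WT arrays, and WT array 1 was the lowest for both genes. Cyp51, lanosterol demethylase, was at 10.08, 10.48, 10.27 and 10.45 in KO females, against 7.70, 8.20, 7.95 and 7.97 in WT females (2.37 ± 0.27, adjusted p 1.78e-06). Fdps, which makes farnesyl diphosphate, rose by 2.33 ± 0.35, and Lss, which closes squalene into lanosterol, rose by 1.99 ± 0.22. Early in the pathway, Hmgcs1 was at 11.42, 11.59, 11.41 and 11.60 in KO females, against 9.83, 10.21, 10.06 and 10.40 in WT females (1.38 ± 0.23, adjusted p 9.66e-05). The smallest changes of the mevalonate steps were in the kinases Mvk (0.74 ± 0.08, adjusted p 5.5e-07) and Pmvk (0.80 ± 0.20, adjusted p 0.00421), while Mvd rose by 1.47 ± 0.17. The later enzymes Msmo1 (1.58), Fdft1 (1.52), Nsdhl (1.36), Sc5d (1.34), Tm7sf2 (1.18), Dhcr7 (1.10) and Ebp (1.00) rose with adjusted p of 9.64e-06 or less. Lbr, a nuclear membrane protein that shares the sterol reductase activity of Tm7sf2, was the exception, at 0.19 ± 0.11 (adjusted p 0.211), although its arrays did not overlap. All 11 calls of the later pathway stayed in each of the 20 alternative settings, and Pmvk lost its call with the chromaffin list mean as covariate.

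**Figure D2:**
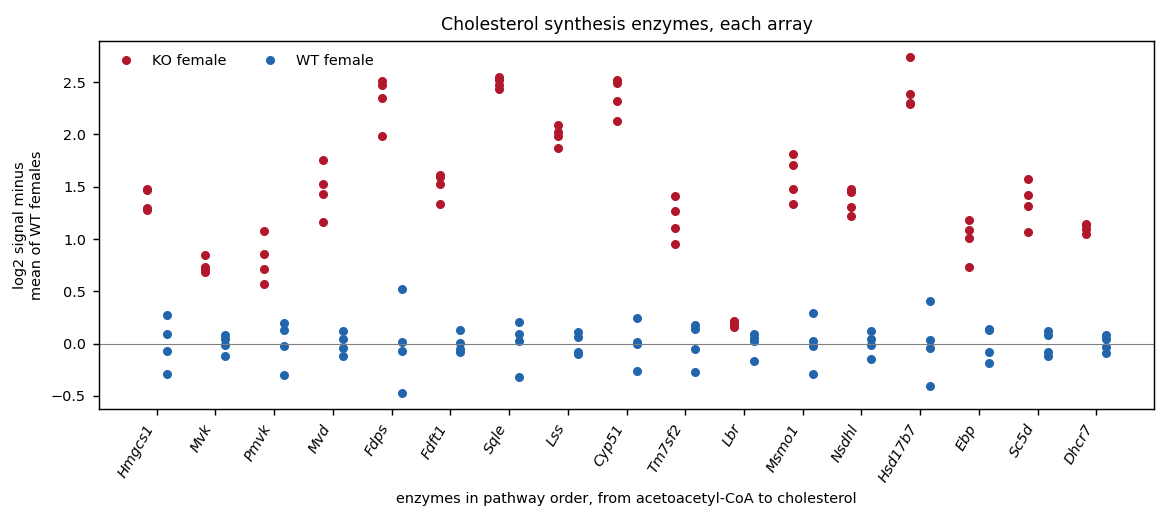
Log2 signal of each array minus the mean of the WT females for 17 cholesterol synthesis enzymes in pathway order, KO females in red left of WT females in blue. Sqle, Hsd17b7, Cyp51 and Fdps stand highest at changes of 2.33 to 2.50, and Lbr (0.19) is the one enzyme that was not called.

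Promoters of these enzymes are shown because their genes moved together. The sequences are those of RefSeq (GRCm38.p6), from 250 bases before to 50 bases after the annotated start, 5′ to 3′ on the gene's strand. Windows were found for 14 of the 17 enzymes, and Sqle, Fdps and Fdft1 had none in the table. Searched on both strands were CCAAT (read as ATTGG on the other strand), the box bound by the factor NF-Y, and TCACNCCAC, a form of the sterol regulatory element bound by SREBP. Capitals mark their matches, which do not overlap here.
Hsd17b7 (chr1:169969156-169969455, minus strand): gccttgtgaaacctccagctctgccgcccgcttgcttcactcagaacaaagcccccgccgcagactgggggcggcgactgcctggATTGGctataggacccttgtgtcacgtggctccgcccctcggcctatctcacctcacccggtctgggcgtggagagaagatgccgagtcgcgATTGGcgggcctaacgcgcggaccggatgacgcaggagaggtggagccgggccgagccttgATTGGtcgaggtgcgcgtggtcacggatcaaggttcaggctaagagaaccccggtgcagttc
Cyp51 (chr5:4104648-4104947, minus strand): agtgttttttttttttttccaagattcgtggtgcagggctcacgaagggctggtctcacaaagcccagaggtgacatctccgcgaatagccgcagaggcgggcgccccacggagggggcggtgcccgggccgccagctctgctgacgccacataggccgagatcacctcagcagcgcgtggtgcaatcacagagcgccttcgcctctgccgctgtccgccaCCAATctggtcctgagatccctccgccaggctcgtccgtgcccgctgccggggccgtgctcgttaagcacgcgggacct
Lss (chr10:76531355-76531654, plus strand): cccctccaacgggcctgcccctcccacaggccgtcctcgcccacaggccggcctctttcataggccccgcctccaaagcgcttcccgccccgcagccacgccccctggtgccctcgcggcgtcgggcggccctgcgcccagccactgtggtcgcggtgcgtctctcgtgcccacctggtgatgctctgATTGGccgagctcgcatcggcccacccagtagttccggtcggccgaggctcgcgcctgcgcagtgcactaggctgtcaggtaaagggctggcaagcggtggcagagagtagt
Hmgcs1 (chr13:119690101-119690400, plus strand): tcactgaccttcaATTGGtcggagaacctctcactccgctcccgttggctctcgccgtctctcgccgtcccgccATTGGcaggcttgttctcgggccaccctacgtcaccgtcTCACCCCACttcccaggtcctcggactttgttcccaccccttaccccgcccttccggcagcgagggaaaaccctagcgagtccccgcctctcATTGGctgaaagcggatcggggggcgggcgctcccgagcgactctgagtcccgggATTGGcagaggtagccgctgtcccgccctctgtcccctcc
The windows of Hsd17b7 and Hmgcs1 hold 3 and 4 CCAAT matches, and those of Cyp51 and Lss hold 1 each. At least 1 window of each of the 14 enzymes holds a match, Lbr included, against 41.1% of all genes with a window (37.4% of all 32851 windows). The form TCACNCCAC occurs in Hmgcs1 alone of the 14, at position -137 from the start, and in 1.24% of all windows. The cyclic AMP response element TGACGTCA occurs in no window of these enzymes. Among genes called higher it is in 2.48% of windows, among genes called lower in 2.36% and among all genes tested in 2.76%. A match is a description of the letters, not of binding.

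Genes of sterol sensing, uptake and storage were mixed, with 8 of 25 higher and 3 lower (median 0.23). The lipid transfer proteins Stard5 and Stard4 rose by 2.06 ± 0.22 and 1.01 ± 0.28 (adjusted p 8.2e-07 and 0.00751). Lrp8, a lipoprotein receptor, was at 8.27, 7.79, 8.06 and 8.73 in KO females, against 6.43, 6.40, 6.52 and 6.56 in WT females (1.73 ± 0.14, adjusted p 3.88e-08). Scarb1, which takes up cholesterol esters from HDL, was at 12.77, 12.78, 12.54 and 12.77 in KO females, against 11.79, 11.77, 11.74 and 11.81 in WT females (0.93 ± 0.09, adjusted p 3.17e-07). Srebf2, the sterol-sensing transcription factor of this pathway, rose by 0.57 and Abca1, a cholesterol exporter, fell by 0.75.

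Steroidogenic genes showed mostly small differences. Of 14 tested, 6 were higher and 0 lower, with a median of 0.15. Star, which brings cholesterol into mitochondria, was at 13.13 to 13.18 in KO and 13.01 to 13.06 in WT females (0.12 ± 0.05, adjusted p 0.0465), a call that ended in most alternative settings. Cyp21a1 (0.20 ± 0.06, adjusted p 0.0199) and Cyp11a1 (0.17 ± 0.05, adjusted p 0.00635) were called with similarly small changes, the call of Cyp21a1 ending in 7 of the 20 alternative settings, but the other probe set of Cyp11a1 differed by -0.80. With both probe sets averaged, the change of Cyp11a1 was -0.31. Cyp11b1, which makes corticosterone, was at -0.11 ± 0.05 (adjusted p 0.13), and Hsd3b1 at -0.15 ± 0.07 (adjusted p 0.0869). The electron donor Fdx1 was at 11.10, 11.10, 10.82 and 11.16 in KO females, against 9.79, 9.90, 9.80 and 9.68 in WT females (1.25 ± 0.11, adjusted p 1.43e-07). Cyb5a, a cofactor of androgen synthesis, was at 9.0, 8.95, 8.78 and 9.01 in KO females, against 7.92, 7.96, 7.88 and 7.63 in WT females (1.09 ± 0.12, adjusted p 9.93e-07). Hsd17b3, a testosterone-forming enzyme of the testis, was at 7.57, 5.25, 6.42 and 6.17 in KO females, against 5.01 to 5.13 in WT females (1.30 ± 0.29, adjusted p 0.0015), so that KO array 2 stood near the WT level. Akr1c18, an X-zone enzyme that inactivates progesterone, was at 12.86, 12.77, 12.75 and 12.79 in KO females, against 10.91, 11.47, 9.91 and 12.18 in WT females. KO arrays were uniform and above all WT arrays, WT arrays were spread widely, and the test was not passed (1.67 ± 0.73, adjusted p 0.0855). Of the X-zone list 4 genes were tested, with 0 higher and 1 lower (25.0%, against 18.7% of all genes). The median of that list was -0.17, and Akr1c18 had its highest change. Cyp17a1 lay below 5 in all WT females and was not called (1.20 ± 0.57, adjusted p 0.115), as were Hsd11b1 (-0.44), Hsd11b2 (-0.19), Tspo (-0.10) and Hsd17b12 (0.05).

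Of 17 genes of the ACTH receptor and of adrenal transcription factors, 2 were higher and 7 lower (median -0.12). Mrap, the accessory protein of the ACTH receptor, was at 11.11, 11.12, 11.03 and 11.22 in KO females, against 9.91, 9.97, 9.93 and 9.84 in WT females (1.21 ± 0.11, adjusted p 1.95e-07). The receptor Mc2r stood at -0.12 and was not called. Nr0b1, a nuclear receptor that restrains steroidogenic factor 1, was at -0.86 ± 0.59 (adjusted p 0.286) with KO array 1 at 7.73 and the other KO arrays at 8.35 to 8.45. Tcf21 and Wt1, transcription factors of capsule cells, were lower, at -0.80 ± 0.15 (adjusted p 0.00033) and -0.52 ± 0.17 (adjusted p 0.0244).

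In the zona glomerulosa list 14 of 17 tested genes fell and 1 rose, with a median of -0.96. Besides Cyp11b2, Vsnl1 and Hsd3b6, the calcium channel Cacna1h was at 8.34, 8.14, 8.33 and 8.02 in KO females, against 9.65, 9.62, 9.68 and 9.62 in WT females (-1.43 ± 0.16, adjusted p 9.65e-07). The potassium channel Kcnk9 was at 7.68, 7.66, 7.73 and 7.34 in KO females, against 8.99, 9.60, 9.51 and 9.67 in WT females (-1.84 ± 0.27, adjusted p 2.35e-05). Both angiotensin II receptors of this list fell, Agtr1b at -1.09 ± 0.16 and Agtr1a at -0.67 ± 0.11 (adjusted p 2.08e-05 and 7.29e-05). Dab2, an endocytic adaptor of glomerulosa cells, was at 10.09, 10.21, 10.47 and 10.25 in KO females, against 11.20, 11.22, 11.17 and 11.25 in WT females (-0.95 ± 0.08, adjusted p 1.03e-07). Wnt4, the WNT ligand made by this zone, was at 8.09, 8.08, 8.70 and 8.17 in KO females, against 9.18, 9.26, 8.96 and 9.68 in WT females (-1.01 ± 0.15, adjusted p 2.09e-05). KO array 3 was the highest of the KO arrays for Wnt4 and still below every WT array. Rgs4 (-0.91), Atp2b3 (-0.90), Smoc2 (-0.65), Oas1b (-0.57) and the calcium channel Cacna1d (-0.39) were lower as well. The call of Cacna1d ended in 10 of the 20 alternative settings, both other scalings among them, and that of Oas1b with either marker mean as covariate. Sfrp1, a secreted WNT inhibitor, was the member that rose (0.57 ± 0.18, adjusted p 0.018), and Nr4a2 (-1.05) and Shh (0.13 ± 0.14, adjusted p 0.516) were not called. With the chromaffin list mean as covariate 12 members were lower, and with the adipocyte marker mean 13.

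Among WNT signalling genes, 12 of 34 ligands, receptors and secreted regulators were lower and 5 higher (median -0.12), and 8 of 17 canonical targets were lower and 0 higher (median -0.34). Rspo3, a capsule signal that amplifies WNT, was at 7.69, 7.62, 7.61 and 7.60 in KO females, against 8.95, 8.62, 8.86 and 9.03 in WT females (-1.23 ± 0.13, adjusted p 6.51e-07). Of the ligands, receptors and regulators, 2 were higher without KO array 2 or KO array 4 and 3 without WT array 3. Dkk3 (-0.75 ± 0.11) and the receptor Lgr5 (-0.70 ± 0.18) fell too. Of the targets, Nkd1 fell by 0.90 ± 0.10 (adjusted p 1.38e-06), Lef1 fell by 0.69 ± 0.12 (adjusted p 0.000116) and Axin2 fell by 0.69 ± 0.11 (adjusted p 5.63e-05). The other probe set of Axin2 differed by 0.14 at a dim level (5.58 in KO and 5.44 in WT females). Hedgehog and capsule genes fell in 14 of 20 and rose in 1, with a median of -0.50. Lum, a matrix proteoglycan, was at 5.28, 5.47, 5.29 and 5.21 in KO females, against 7.52, 7.20, 7.13 and 6.91 in WT females (-1.88 ± 0.31, adjusted p 0.000111). Among them the hedgehog receptor and target Ptch1 fell by 0.67 and Gli1, another target, fell by 0.45. Of 42 collagens and matrix genes, 15 were lower and 4 higher (median -0.37). Without WT array 1, 2 matrix genes were higher. Postn, periostin, fell by 1.32 ± 0.22 and Mmp2, a gelatinase, fell by 1.66 ± 0.43. In these glands the chromaffin and adipocyte marker lists were lower too, with the values given below, and their part in the WNT, capsule and matrix counts was not tested beyond the covariates. Of the hedgehog and capsule genes 10 were lower with the chromaffin covariate and 11 with the adipocyte covariate. Of the collagens and matrix genes 13 were lower with the first and 8 with the second, and fitted on the female arrays alone 22 were lower.

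Of 38 potassium, calcium and chloride channel genes, 15 were lower and 1 higher (median -0.23). Cacna1c, the pore of an L-type calcium channel, was at 8.12, 8.38, 8.48 and 7.91 in KO females, against 9.81, 9.79, 9.81 and 9.88 in WT females (-1.60 ± 0.13, adjusted p 4.4e-08). Kcnk5, an acid-sensitive potassium channel, rose by 1.14. With the chromaffin list mean as covariate 8 channel genes were lower. Among activins, inhibins, BMPs and related genes, 4 of 33 were higher (12.1%, against 13.9% of all genes) and 5 lower (15.2%, against 18.7%). This list did not stand out (median -0.08). Without KO array 2, KO array 3, WT array 2 or WT array 3, 2 were higher, and without KO array 1 or WT array 3, 3 were lower. Bmp6 was at 8.83, 7.24, 6.80 and 8.10 in KO females, against 6.46, 6.39, 6.22 and 6.36 in WT females (1.38 ± 0.28, adjusted p 0.000742), with an SD of 0.90 in KO and 0.10 in WT females. Grem1, a BMP antagonist, rose by 1.29 ± 0.26 from a WT level below 5, and Gdf10 (-0.65) and Tgfb3 (-0.61) fell.

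Most fat cell markers fell. Of 15 adipocyte markers 11 were lower and 0 higher, with a median of -1.73, and the mean of the list was 7.51, 6.90, 7.01 and 7.30 in KO females, against 9.44, 9.24, 9.05 and 7.97 in WT females. WT array 4 was the nearest to the KO females. Retn, the fat cell hormone resistin, was at 8.86, 7.75, 8.32 and 7.98 in KO females, against 11.04, 11.29, 11.31 and 10.42 in WT females (-2.79 ± 0.37, adjusted p 8.84e-06). Lgals12, a galectin of fat cells, fell by 2.77 ± 0.50, Klb, a coreceptor of FGF hormones, fell with all KO arrays at or below 5, Cdo1, cysteine dioxygenase, fell by 2.69 ± 0.50 and Car3, a carbonic anhydrase, fell by 2.40 ± 0.35. Cidea, a lipid droplet protein of brown fat, was at 4.80, 5.15, 4.58 and 6.35 in KO females, against 10.07, 8.62, 8.50 and 6.12 in WT females (-3.11 ± 1.10, adjusted p 0.0345). KO array 4 exceeded WT array 4, so the groups overlapped for Cidea. Fatty acid synthesis and desaturation genes split, with 7 of 19 lower and 6 higher (median -0.51). Pnpla3, a lipase, was at 5.84, 5.05, 5.60 and 5.45 in KO females, against 8.49, 8.33, 8.24 and 6.92 in WT females (-2.52 ± 0.57, adjusted p 0.00174). Dgat2, which makes triglycerides, fell by 2.12 ± 0.48, Thrsp fell by 1.9 ± 0.46 and Scd1, a desaturase, fell by 1.80 ± 0.34. The higher members included Gpam (0.96) and Fads1 (0.55). With the adipocyte marker mean as a covariate 1 of these genes was lower in place of 7.

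Glucose metabolism genes were mixed, while calls in the lists of oxidative stress defence and chaperones were mostly higher. Of 30 glucose metabolism genes 5 were higher (16.7%, against 13.9% of all genes) and 7 lower (23.3%, against 18.7%), with a median of -0.16. With the adipocyte covariate 10 were higher and 5 lower, and with the chromaffin covariate 3 and 3. Slc2a4, the insulin-sensitive glucose transporter, was at -1.73 ± 0.31 (adjusted p 0.000247) and G6pc, a glucose-6-phosphatase, at 1.42 ± 0.40 (adjusted p 0.00984). G6pc was at 6.75, 6.20, 6.45 and 7.98 in KO females, against 5.60, 5.16, 5.42 and 5.53 in WT females, and its call ended without KO array 4. Pygm, muscle glycogen phosphorylase, fell by 1.52 ± 0.51 (adjusted p 0.0267), a call that ended without WT array 2, WT array 3 or KO array 3. Oxidative stress defence genes were higher in 10 of 24 and lower in 1 (median 0.19). With the adipocyte covariate 8 of them were higher, and with the chromaffin covariate 5. Besides Gsta3, Srxn1 (0.90 ± 0.12), Txnrd1 (0.71 ± 0.08) and Gsr (0.64 ± 0.13), enzymes that keep peroxiredoxin, thioredoxin and glutathione reduced, were higher. Chaperones and genes of the unfolded protein response were higher in 10 of 30 and lower in 2 (median 0.07), with Edem1 at 0.54 ± 0.09 and Ddit3, a stress-induced transcription factor, at -0.62 ± 0.10. Without WT array 1, 6 of this list were higher, as were 4 with the adipocyte covariate and 6 with the chromaffin covariate. Hspa1b was at 8.13, 8.17, 7.44 and 8.31 in KO females, against 9.95, 9.39, 9.45 and 7.96 in WT females, with WT array 4 among the KO values and no call (-1.17 ± 0.70, adjusted p 0.213). Of 53 respiratory chain subunits 2 were higher, Uqcrq (0.40 ± 0.10) and Sdhb (0.25 ± 0.08), and 0 lower (median -0.002, which was 0.042 with arrays centred on their median). With the adipocyte covariate 10 of them were higher and 0 lower, and with the chromaffin covariate 0 and 1.

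Glucocorticoid-induced genes were higher in 9 of 20 (45.0%, against 13.9% of all genes) and lower in 2 (10%, against 18.7%), with a median of 0.36. Without KO array 4, 5 were higher, and with either marker mean as covariate 6 were. Lcn2, lipocalin 2, rose by 1.14 ± 0.32 (adjusted p 0.00875), Ddit4, an inhibitor of mTOR signals, by 0.73 ± 0.15 (adjusted p 0.000802) and Cdkn1a, a cell cycle inhibitor, by 0.65 ± 0.21 (adjusted p 0.0228). Pdk4 stood at -0.94 ± 0.69 (adjusted p 0.325), and at 1.33 with the adipocyte marker mean as a covariate. Circadian clock genes split, with 7 of 20 higher and 5 lower (median -0.09). The activator Arntl was at 8.95, 8.81, 8.65 and 9.04 in KO females, against 7.75, 7.78, 7.89 and 7.81 in WT females (1.05 ± 0.16, adjusted p 3.09e-05). Its partner Npas2 rose by 0.97 ± 0.17, while Dbp (-0.79), Per3 (-0.71) and Nr1d1 (-0.61), genes driven by these activators, fell. The labels give no hour of dissection, and its part in the clock genes was not tested. Cell cycle genes were higher in 5 of 40 (12.5%, against 13.9% of all genes) and lower in 8 (20%, against 18.7%), so the list did not stand out (median 0.02). Without KO array 1, 3 were higher. Ttk, a mitotic kinase, was at 6.48, 6.13, 6.11 and 6.94 in KO females, against 4.83, 4.86, 5.04 and 5.32 in WT females (1.40 ± 0.16, adjusted p 1.43e-06), while the proliferation marker Mki67 stood at -0.13 and was not called. Among the inhibitors Cdkn1c rose by 0.83 ± 0.24, and Ccnd2, a cyclin, fell by 0.71 ± 0.09.

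Receptors and metabolic signals of other hormones changed as well. Of 20 hormone receptors and growth factor genes 4 were higher and 8 lower (median -0.23). Avpr1a, a vasopressin receptor, was at 8.30, 6.73, 7.50 and 6.12 in KO females, against 5.34, 5.14, 5.16 and 5.57 in WT females (1.86 ± 0.28, adjusted p 3.62e-05). Oxtr, the oxytocin receptor, was at 1.01 ± 0.42 and was not called (adjusted p 0.0691), and Igf1 fell by 1.02 ± 0.27 (adjusted p 0.0059). Retinoid genes were higher in 3 of 19 (15.8%, against 13.9% of all genes) and lower in 5 (26.3%, against 18.7%). Their median of -0.07 turned to 0.003 after another round of quantile normalization. Without KO array 2, WT array 2 or WT array 3, 3 were lower. Aldh1a2, which makes retinoic acid, was at 6.64, 7.00, 6.80 and 6.48 in KO females, against 8.19, 8.33, 8.31 and 8.26 in WT females (-1.54 ± 0.17, adjusted p 1.19e-06). Ganglioside and sialyltransferase genes were higher in 6 of 25 and lower in 10 (median -0.17), St3gal1 (0.89 ± 0.13) and Ugcg (-0.84 ± 0.15), the first step of glycosphingolipid synthesis, among them. Of 18 imprinted genes 10 were lower and 1 higher (median -0.43), with Peg10 at -1.04 ± 0.15, Mest at -1.03 ± 0.10 and Ndn at -0.99 ± 0.10 (adjusted p 1.82e-05, 3.84e-07 and 3.19e-07). Synaptic vesicle and neurexin genes were lower in 14 of 29 and higher in 6 (median -0.35), the 3 largest rises being Sv2c, Ptprz1 and Nxph1. With the chromaffin list mean as covariate 2 of them were lower in place of 14 and 6 were higher. Without KO array 2, KO array 4, WT array 2 or WT array 3, 7, 6, 8 or 7 of them were lower.

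**Figure D3:**
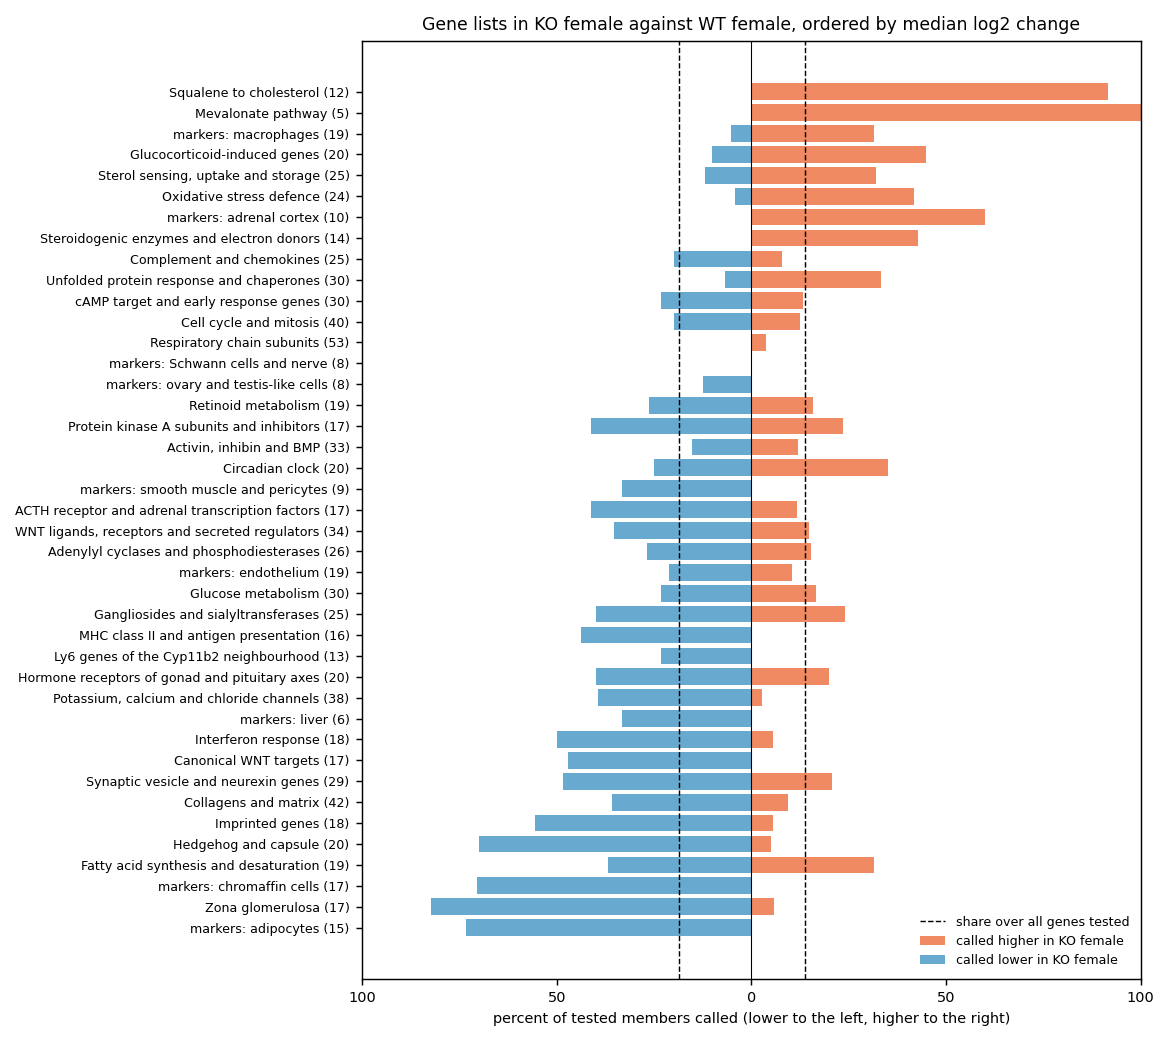
Percent of tested members called lower (blue, to the left) and higher (orange, to the right) in KO against WT females for each list with at least 5 tested members, ordered by median log2 change, with the number tested in brackets. Dashed lines mark the share over all genes tested, 13.9% higher and 18.7% lower; the cholesterol lists reach 100% and 91.7% higher, and the zona glomerulosa list 82.4% lower.

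Markers of the other cells of the gland were measured beside these lists. The cortex list (10 genes, 6 higher and 0 lower) had means of 11.9 to 12.0 in KO and 11.5 to 11.6 in WT females. Its changes ran from -0.15 to 1.25 with a median of 0.18, and the largest were those of Fdx1, Mrap and Scarb1 given above. Higher calls of this list numbered 3 with the adipocyte covariate, and 4 with the chromaffin covariate or another round of quantile normalization. Of 17 chromaffin markers 12 were lower and 0 higher, with means of 8.73, 8.23, 8.60 and 8.23 in KO females, against 8.82, 9.09, 9.15 and 8.79 in WT females. Slc18a1, a vesicular monoamine transporter, fell by 0.94 ± 0.21 (adjusted p 0.00177) and Scg3, secretogranin III, by 0.76 ± 0.24 (adjusted p 0.0191). Each KO array lay below each WT array in that mean, KO array 1 by little. Without KO array 2, KO array 4, WT array 2 or WT array 3, 7, 6, 8 or 7 chromaffin markers were lower. Of 19 macrophage markers 6 were higher and 1 lower, with means of 7.35, 7.11, 7.88 and 7.16 in KO females, against 6.81, 7.01, 7.02 and 7.01 in WT females. KO array 3 was the highest. Trem2, a lipid receptor of macrophages, was at 8.14, 7.72, 7.90 and 7.72 in KO females, against 6.72, 6.74, 6.75 and 6.60 in WT females (1.17 ± 0.20, adjusted p 0.00011). Cd163, a scavenger receptor, rose by 1.20 ± 0.28, and Lyve1, of macrophages and lymph vessels, by 1.11 ± 0.24, while Lpl, which fat cells also make, fell by 1.55 ± 0.44. Endothelial markers were higher in 2 of 19 (10.5%, against 13.9% of all genes) and lower in 4 (21.1%, against 18.7%), with a median of -0.13. The lower calls numbered 2 without KO array 1, KO array 2 or WT array 1, 1 without WT array 4 and 0 with the adipocyte covariate. Apln, the peptide apelin, was at 7.82, 7.49, 7.56 and 8.48 in KO females, against 5.08, 4.94, 5.0 and 4.91 in WT females (2.85 ± 0.58, adjusted p 0.000671), and its receptor Aplnr fell by 0.43 ± 0.15 (adjusted p 0.0317). Of smooth muscle and pericyte markers 3 of 9 were lower, Rgs5 (-0.99 ± 0.28), Cspg4 (-0.55) and Des (-0.49). All 3 lost the call with the adipocyte marker mean as covariate.

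Other immune genes were measured too. Of 16 genes of antigen presentation 7 were lower and 0 higher (median -0.22), and of 18 interferon response genes 9 were lower and 1 higher (median -0.31). Of the antigen presentation genes 4 were lower without KO array 2, with the female groups alone or after another round of quantile normalization, and 3 with either marker mean as covariate. Of the interferon response genes 4 were lower with the adipocyte covariate and 5 with the chromaffin covariate. Without KO array 2, KO array 4, WT array 3 or WT array 4, 6 interferon response genes were lower. H2-Ab1 was at 9.59, 7.51, 8.66 and 8.21 in KO females, against 9.12, 9.78, 9.71 and 9.82 in WT females (-1.11 ± 0.30, adjusted p 0.00723). KO array 1 lay above WT array 1, and the call ended when the female groups were fitted alone. Ifit1, an interferon-induced antiviral gene, was at 7.07, 6.34, 7.06 and 6.44 in KO females, against 7.37, 7.70, 7.68 and 7.67 in WT females (-0.88 ± 0.16, adjusted p 0.00023). Complement and chemokine genes were higher in 2 of 25 and lower in 5 (median 0.11), but higher in 6 and lower in 4 with arrays centred on their median, and 4 and 4 after another round of quantile normalization. Without KO array 2 or KO array 4, 4 were higher. Cxcl13, a chemokine that attracts B cells, was at 9.25, 7.39, 11.39 and 7.62 in KO females, against 5.89, 5.83, 6.93 and 6.28 in WT females (2.68 ± 0.72, adjusted p 0.00687), with the widest spread of the genes named (SD 1.85 in KO and 0.50 in WT females). Of mast cell genes, 4 of 13 were tested, with Hdc, histidine decarboxylase, at 2.19 ± 0.21 (adjusted p 2.96e-07) and Cpa3, mast cell carboxypeptidase, at -1.54 ± 0.28 (adjusted p 0.000292). Ighm, the only lymphocyte marker called of 3 tested, stood at -1.46 ± 0.36 (adjusted p 0.00352), with its 6 other probe sets at -0.16 to 0.24. None of 2 erythrocyte and 8 Schwann cell markers was called by limma, and 0 of either had an unadjusted p under 0.05. Of markers of neighbouring organs, 1 of 4 kidney (Nphs1, 0.24 ± 0.08), 2 of 6 liver and 1 of 8 gonadal markers (Foxl2, -0.39 ± 0.13) were called. These shares are 25.0%, 33.3% and 12.5%, against 32.6% of all genes called in either direction. Alb, albumin, was at 5.58, 5.49, 6.13 and 5.70 in KO females, against 4.94, 6.49, 8.82 and 7.21 in WT females, WT array 3 being the highest (-1.15 ± 0.44, adjusted p 0.0491). Of the 20 alternative settings, the call of Alb ended in 15, that of Foxl2 in 10 and that of Nphs1 in 7.

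**Figure D4:**
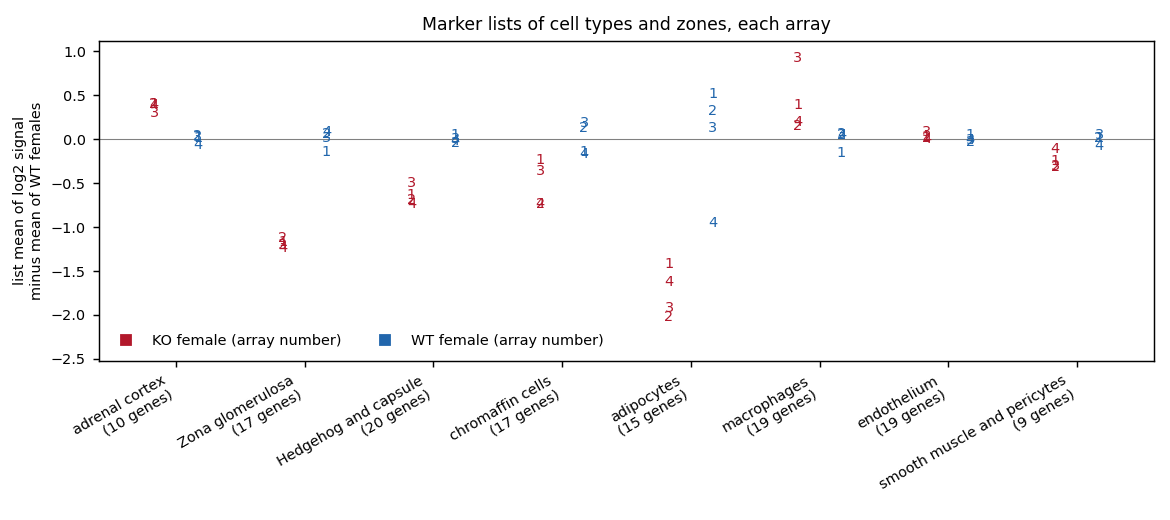
Mean log2 signal of each marker list in each array, minus the mean of the WT females, with array numbers in red for KO and in blue for WT females (KO left). Adipocyte means are lowest in KO females, with WT array 4 (7.97) between the groups, and KO array 3 (7.88) is highest for macrophages.

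Near the targeted locus, KO females carry the floxed chromosome on both alleles and WT females on 1, on a mixed background. Of 16 tested genes that start within 1 Mb of Prkar1a, 7 were called, 3 higher and 4 lower. Fam20a, the next tested gene after Prkar1a, which encodes a protein of the secretory kinase family, was at 7.17, 7.38, 6.31 and 7.72 in KO females, against 5.95, 5.79, 5.55 and 5.83 in WT females (1.36 ± 0.23, adjusted p 0.000138). Abca5, a lipid transporter (0.61 ± 0.17), and Gna13, a G protein subunit (0.20 ± 0.05), were higher. Cep112it (-0.72 ± 0.11), Axin2, Rgs9 (-0.66 ± 0.17) and Abca8a (-0.51 ± 0.13) were lower. Within 5 Mb 21 of 68 and within 10 Mb 90 of 283 genes were called, against 32.6% of all genes. Strain differences near the floxed allele cannot be told apart from the knockout for these genes. In the neighbourhood of Cyp11b2, 3 of 13 tested genes were lower (23.1%, against 18.7% of all genes). These were Cyp11b2, Ly6d and Ly6e (-0.35 ± 0.12), the call of Ly6e ending under several alternatives. Across chromosomes the share called lay between 28.0% (chromosome 7) and 39.6% (chromosome X, with 26.4% lower and 13.2% higher).

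The knockout effect in females was compared with that in males through the difference of effects, fitted in the same model. The female minus intact male difference was called for 2302 genes (16.0%), and the female minus GDX male difference for 477 (3.31%). Of the 4694 genes called in females, 2136 differed from the effect in intact males and 457 from that in GDX males. Positive differences made 45.0% of the first and 45.3% of the second, against 61.4% and 60.3% with arrays centred on their median. The control genotypes differ between the sexes, as given at the start, and their part in these differences was not tested. Of the 16 genes called in intact males 9 were also called in females (56.2% of the male and 0.192% of the female calls), all 9 with the same sign. Of the 609 called in GDX males 473 were called in females (77.7% and 10.1%), 467 with the same sign. These overlaps are to be read against the 32.6% of all genes called in females. The comparisons also share the same estimate of the spread of each gene. The difference from GDX males was called for 310 genes without WT female array 3, 268 without KO female array 4, 309 without WT GDX array 2, 290 without WT GDX array 4 and 236 without KO GDX array 1.

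By gene, the rises of Sv2c, Bpifc, Olfr810, Emb and St8sia5 were also called in GDX males (3.42, 3.23, 2.81, 2.45 and 2.69). The female minus GDX male difference was called for none of these genes (adjusted p 0.0938 to 0.421). It stood at 1.09, 1.19, 1.27, 1.45 and 1.00, with SE of 0.43 to 0.80, which does not show equal effects. In intact males the changes of these genes stood at 0.69, 0.44, 0.90, 1.41 and 0.00 and were not called, and each differed from the female effect (adjusted p 3.07e-05 to 0.0108). Ptprz1, Fetub and Spink8 differed from both male effects, with changes of 0.97, 1.09 and 0.35 in GDX males and 0.25, 0.67 and 0.07 in intact males. Vsig4 likewise stood at 0.33 in GDX males and -0.03 in intact males (adjusted p of the differences 0.00514 and 0.000273). Among the falls, Hsd3b6 and Ly6d fell in GDX males too (-2.62 and -2.41), while Retn (0.09), Car3 (-0.19) and Lgals12 (-0.06) were not called there and differed from females. Vsnl1 stood at -1.24 in GDX and -1.42 in intact males, and both differences were called (adjusted p 0.0245 and 0.0128). Cyp11b2 differed from GDX males (-2.03, adjusted p 0.0293), and its difference from intact males was not called (-1.35, adjusted p 0.0728). Cre is expressed from the locus of this gene, and WT intact males and WT GDX array 1 had no Cre. In intact males the Cre allele and the knockout cannot be told apart for Cyp11b2, and in GDX males the part of the Cre allele was not tested. Prkar1a itself stood at -0.92 in intact males, not called (adjusted p 0.16), and fell by 1.19 in GDX males (adjusted p 0.00477), and neither female effect minus male effect was called (adjusted p 0.305 for intact and 0.756 for GDX males). Its KO arrays spread from 6.89 to 8.47 in intact males (WT 8.72 to 8.91) and from 7.30 to 7.99 in GDX males (WT 8.59 to 8.94). In KO females they lay at 6.67 to 7.35, and the part of this spread in the differences of effects was not tested.

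Of the cholesterol enzymes, 3 of 5 mevalonate and 11 of 12 later ones differed from the effect in intact males, and 4 of 5 and 10 of 12 from that in GDX males, all with the larger change in females. Sqle stood at 0.83 in intact and 0.84 in GDX males (adjusted p of the differences 0.00356 and 0.0121), and Hsd17b7 at 0.66 in both. Dhcr7 (0.78, adjusted p 0.000505) and Mvk (0.38, adjusted p 0.00692) were the enzymes called in GDX males, and for neither was the difference from the female effect called (adjusted p 0.252 and 0.0715). Of the 17 glomerulosa genes 11 differed from intact males and 10 from GDX males, all lower in the female effect, among them Cacna1h (adjusted p 0.00183 and 0.0249), Dab2 (0.000168 and 0.0119) and Rgs4 (0.00214 and 0.00514). Chromaffin markers differed from intact males in 11 of 17, where their median change was 0.24, and from GDX males in 0 of 17, where it was 0.04. Acpp, prostatic acid phosphatase, changed in opposite directions, though its female arrays overlapped, at 1.13 ± 0.26 in females and -2.17 in GDX males (adjusted p of the difference 8.63e-05). Fa2h, fatty acid 2-hydroxylase, was not called in females (-0.50 ± 0.40) and fell by 2.77 in GDX males (adjusted p of the difference 0.0285). G6pc rose in all 3 comparisons, by 1.42 in females, 2.04 in GDX males and 2.35 in intact males, with neither difference called (adjusted p 0.608 and 0.287).

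**Figure D5:**
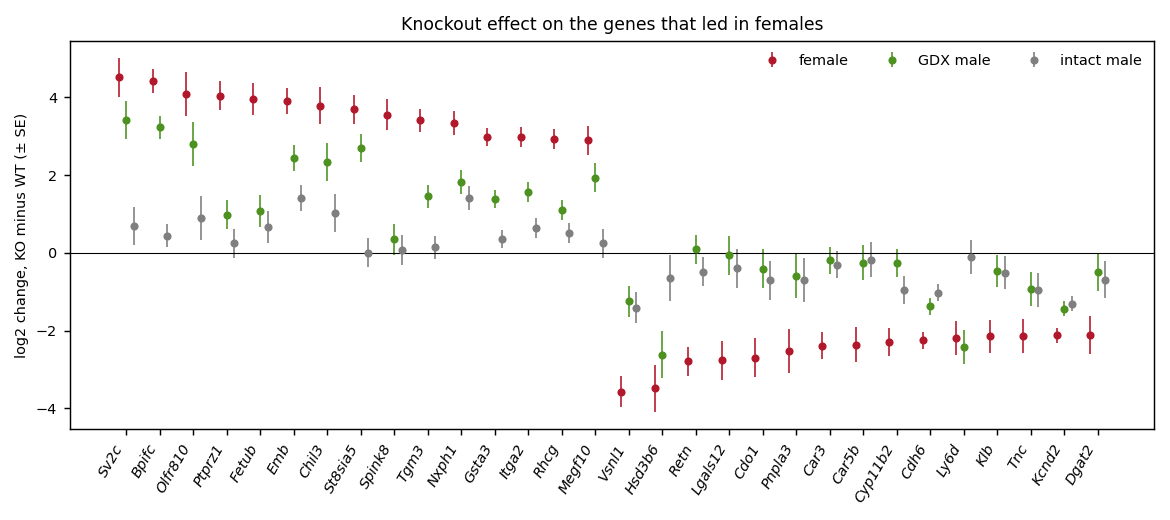
Log2 change, KO minus WT, ± SE from limma for the 15 largest rises and 15 largest falls of females, in females (red), GDX males (green) and intact males (grey), 4 arrays per group. Sv2c stands at 4.51, 3.42 and 0.69 in that order, while Spink8 (3.55, 0.35 and 0.07) and Retn (-2.79, 0.09 and -0.49) were called in females alone of the 3.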

How the data were processed

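Whole adrenal RNA (500 ng per sample) was measured on Affymetrix arrays, 4 per group in 6 groups. The authors deposited log2 values made with RMA, per the submitters' processing notes. Which program and version ran RMA is not recorded there. Of 32202 probe sets, 22943 had 1 gene symbol, 1731 several and 7528 none. The probe set with the highest mean was kept for each gene, and genes with log2 over 5 in at least 4 of 24 arrays were tested. Group means of all 6 groups were fitted with limma 3.58.1 (R 4.3.3; lmFit and eBayes), so that all groups share the spread, and p-values were adjusted by Benjamini-Hochberg at 0.05. The fit was tested on simulated data. Array medians lay between 5.20 and 5.29; depth does not apply to arrays, and their number limits precision.

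Named were Prkar1a, Cyp11b2, the 15 largest rises and falls among called genes without overlap, up to 4 members of each list with the largest change, all tested members of 5 lists, genes within 1 Mb of Prkar1a and the 8 largest differences each way. Srebf2, Abca1, Mc2r, Ptch1, Gli1, Kcnk5, Gpam, Fads1, Dbp, Per3, Nr1d1, Mki67, and others given by value alone were chosen after their values were seen. Members and lists were chosen with earlier results of these data known. Of 1103 list entries 1003 matched a gene and 894 were tested; the rest were not analysed here. Alternatives were the groups alone, other filters, all probe sets averaged, median centring, quantile normalization, array weights, trend and robust eBayes, a replicate block, marker means as covariates and leaving out each array. The setting without KO array 3 and WT array 4 was chosen after seeing the data.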

Additional observations from a re-analysis of the deposited data

Results flagged for a closer look

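Dixon's test was run on 492 groups of 4 arrays (KO and WT females for each of the 246 named genes), and 27 had an array beyond its critical value. Chance marks about 1 in 20 groups, so this number is close to what chance gives. Among KO females, Car5b was 7.41 in array 1 (6.44 to 6.56 in the others), Rgs2 was 9.20 in array 4 (9.77 to 9.87 in the others), Scarb1 was 12.54 in array 3 (12.77 to 12.78 in the others), Thrsp was 8.56 in array 1 (8.71 to 8.73 in the others). Among KO females, Nr0b1 was 7.73 in array 1 (8.35 to 8.45 in the others), Wnt4 was 8.70 in array 3 (8.08 to 8.17 in the others), Ccl6 was 7.10 in array 3 (6.20 to 6.27 in the others), Ly6c1 was 4.08 in array 3 (4.51 to 4.58 in the others). Among KO females, Apoa1 was 4.98 in array 3 (5.39 to 5.44 in the others), Cep112it was 4.18 in array 1 (4.58 to 4.61 in the others). Among WT females, Cyp11b2 was 9.71 in array 1 (10.97 to 11.11 in the others), St8sia5 was 4.24 in array 2 (4.94 to 5.03 in the others), Pnpla3 was 6.92 in array 4 (8.24 to 8.49 in the others), Akap1 was 8.49 in array 4 (8.39 to 8.39 in the others). Among WT females, Rgs2 was 11.04 in array 3 (10.45 to 10.49 in the others), Sfrp1 was 8.23 in array 4 (8.02 to 8.05 in the others), Smoc2 was 6.72 in array 2 (7.05 to 7.06 in the others), Ndufa1 was 8.17 in array 4 (8.49 to 8.53 in the others). Among WT females, Cdkn1c was 9.28 in array 3 (8.91 to 8.92 in the others), Rdh11 was 7.76 in array 3 (7.59 to 7.61 in the others), Cacna1c was 9.88 in array 4 (9.79 to 9.81 in the others), H2-Ab1 was 9.12 in array 1 (9.71 to 9.82 in the others). Among WT females, Gbp3 was 6.17 in array 1 (6.34 to 6.36 in the others), Ifit1 was 7.37 in array 1 (7.67 to 7.70 in the others), Cxcl14 was 8.73 in array 1 (8.33 to 8.36 in the others), Cpa3 was 7.60 in array 3 (6.48 to 6.62 in the others). Among WT females, Foxl2 was 5.18 in array 2 (5.62 to 5.65 in the others). 

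The knockout effect differed between females and males for the named genes below, by the difference of effects in limma. Against intact males, Sv2c differed by 3.82 (4.51 in females, 0.69 in intact males, adjusted p 0.00126), Bpifc differed by 3.98 (4.42 in females, 0.44 in intact males, adjusted p 3.07e-05), Olfr810 differed by 3.18 (4.07 in females, 0.90 in intact males, adjusted p 0.0108). Against intact males, Ptprz1 differed by 3.79 (4.04 in females, 0.25 in intact males, adjusted p 0.000209), Fetub differed by 3.28 (3.96 in females, 0.67 in intact males, adjusted p 0.00111), St8sia5 differed by 3.69 (3.69 in females, 0.00 in intact males, adjusted p 0.000225). Against intact males, Spink8 differed by 3.48 (3.55 in females, 0.07 in intact males, adjusted p 0.000519), Tgm3 differed by 3.27 (3.41 in females, 0.14 in intact males, adjusted p 0.000101), Vsnl1 differed by -2.16 (-3.57 in females, -1.42 in intact males, adjusted p 0.0128). Against intact males, Hsd3b6 differed by -2.83 (-3.48 in females, -0.65 in intact males, adjusted p 0.028), Retn differed by -2.30 (-2.79 in females, -0.49 in intact males, adjusted p 0.0059), Lgals12 differed by -2.37 (-2.77 in females, -0.40 in intact males, adjusted p 0.0279). Against intact males, Car3 differed by -2.09 (-2.40 in females, -0.30 in intact males, adjusted p 0.00725), Car5b differed by -2.18 (-2.36 in females, -0.18 in intact males, adjusted p 0.025), Ly6d differed by -2.10 (-2.20 in females, -0.10 in intact males, adjusted p 0.0256). Against intact males, Tenm3 differed by -1.84 (-1.96 in females, -0.12 in intact males, adjusted p 0.000225). Against GDX males, Cyp11b2 differed by -2.03 (-2.30 in females, -0.27 in GDX males, adjusted p 0.0293), Ptprz1 differed by 3.07 (4.04 in females, 0.97 in GDX males, adjusted p 0.00514), Fetub differed by 2.87 (3.96 in females, 1.09 in GDX males, adjusted p 0.0103). Against GDX males, Spink8 differed by 3.21 (3.55 in females, 0.35 in GDX males, adjusted p 0.00514), Vsnl1 differed by -2.33 (-3.57 in females, -1.24 in GDX males, adjusted p 0.0245), Retn differed by -2.88 (-2.79 in females, 0.09 in GDX males, adjusted p 0.00595). Against GDX males, Lgals12 differed by -2.71 (-2.77 in females, -0.06 in GDX males, adjusted p 0.0382), Car3 differed by -2.21 (-2.40 in females, -0.19 in GDX males, adjusted p 0.0172), Lum differed by -2.0 (-1.88 in females, 0.12 in GDX males, adjusted p 0.0171). Against GDX males, Pygm differed by -2.95 (-1.52 in females, 1.42 in GDX males, adjusted p 0.0269), Acpp differed by 3.30 (1.13 in females, -2.17 in GDX males, adjusted p 8.63e-05), Kng2 differed by 2.65 (2.08 in females, -0.58 in GDX males, adjusted p 0.0495). Against GDX males, Vsig4 differed by 2.42 (2.75 in females, 0.33 in GDX males, adjusted p 0.00514), Fa2h differed by 2.27 (-0.50 in females, -2.77 in GDX males, adjusted p 0.0285), Rsph4a differed by 2.23 (2.62 in females, 0.39 in GDX males, adjusted p 0.0185). Against GDX males, Scd1 differed by -1.78 (-1.80 in females, -0.03 in GDX males, adjusted p 0.0408).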

How the results depend on the processing

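The count of genes called between KO and WT females was 2482 with the chromaffin marker mean as a covariate (2341 of them shared with the 4694), 3408 with the adipocyte marker mean and 5857 with array weights. Leaving out 1 array gave 3881 to 4560. The difference from intact males was called for 261 genes with the chromaffin covariate and for 1615 to 2481 without single arrays. The difference from GDX males was called for 78 genes with the chromaffin covariate, 937 with array weights and 236 to 663 without single arrays. Both marker means differ between the groups, so a covariate also takes up part of the group difference. Of 186 called genes among the 246 named, 119 kept the call in all 20 settings, 42 lost it with the chromaffin covariate and 36 with the adipocyte covariate. With the adipocyte covariate the changes of Pde3b, Pdk4 and Cidea were 0.15, 1.33 and 0.80, and with all probe sets averaged that of Cyp11a1 was -0.31; the cause was not tested. The labels do not say that replicate numbers pair the samples. Same-numbered KO and WT females had correlations of deviations of -0.08 to 0.01, which with 4 arrays per group cannot settle whether they were paired. With the replicate block 4604, 2144 and 429 genes were called. Genes near the background of the arrays have uncertain fold changes, and 4 arrays per group limit the precision. Among the genes given in the text, calls that ended with the chromaffin covariate were those of Abca8a, Akap11, Akap2, Akap6, Alb, Aplnr, Cacna1d, Cdkn1a, Cdkn1c, Cyp21a1, Foxl2, G6pc, Gna13, H2-Ab1, Kng2, Lgr5, Ly6e, Nphs1, Oas1b, Pkia, Pmvk, Prkaca, Prkar1b, Pygm, Rgs2, Rgs9, Scg3, Sdhb, Sfrp1, Slc18a1, Star, Stard4 and Uqcrq. Among the genes given in the text, calls that ended with the adipocyte covariate were those of Abca5, Abca8a, Akap11, Akap7, Alb, Aplnr, Cdkn1c, Cidea, Cspg4, Cxcl13, Cyp11a1, Cyp21a1, Des, Dgat2, Foxl2, H2-Ab1, Igf1, Ighm, Klb, Lcn2, Lpl, Ly6e, Mmp2, Nphs1, Oas1b, Pde3b, Pnpla3, Ppargc1a, Rgs5, Star, Thrsp and Wt1.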
